A study of Canis lupus familiaris with 16 samples.

Results

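MEDAG (mesenteric estrogen-dependent adipogenesis, identifier ENSCAFG00000006579) is 1 of the 24580 genes in an RNAseq table of canine meningioma and normal meninges, and 1 of 41 distinct identifiers on the study's list of genes overexpressed in the tumors. It was selected here because it stood on that list, so the difference between tumors and controls chose it and is given below as a description with no test. The choice did not use how other genes varied with MEDAG among the tumors, and that was tested. Meningiomas are tumors that arise from cells of the arachnoid, the membrane that lies beneath the dura.

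The samples were 13 meningiomas of client dogs, 6 labelled grade I and 7 grade II, and normal meninges of 3 healthy research beagles. The subtypes in the labels were transitional in 5 tumors, meningothelial in 1 and atypical in 7. The paper reports that further cases were sequenced and left out. Their reasons were low mapping, an outlying place in principal components or a diagnosis other than meningioma. The spread between tumors given below is that of the retained cases. The labels describe the tumors as fixed in formalin and embedded in paraffin, although the study's methods mark some tumor RNA as fresh-frozen, and the controls were fresh-frozen. Preservation, breed and the group can therefore largely not be told apart. The RNA was depleted of ribosomal RNA and sequenced with strand kept. In the table the libraries are numbered from 0 within each group with no tumor name, so no library was assigned a grade, a subtype or a way of preservation here, and MEDAG was not compared between these.

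MEDAG encodes a cytoplasmic protein that was described in the fat of the mesentery, and its name refers to a response to estrogen in that tissue. Raising it in preadipocytes, the precursors of fat cells, favors their differentiation and the storage of lipid. Progenitor cells turn into fat cells through transcription factors such as KLF5 and PPARG, while secreted WNT proteins restrain that step. Meningeal tissue is not a fat depot, but it contains fibroblasts, vessels and arachnoid cells, and arachnoid cells and fibroblasts share a mesenchymal character. Since RNA was taken from whole tissue, fewer cells of a type and less RNA per cell cannot be told apart.

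Library depth was 2138741 to 7358925 fragments in the meningiomas and 2269204 to 7054614 in the controls, where a fragment is 1 sequenced cDNA molecule assigned to a gene. MEDAG was counted with 194 to 4841 fragments per meningioma library (median 1302) and with 357, 133 and 261 in the controls. The counting error of its level, with fragments taken as independent, was 1.44% to 7.18% in the meningiomas and 5.29% to 8.67% in the controls. Meningioma libraries 2 and 12 stood apart from the others on the third principal component of log2 FPKM over genes averaging at least 1 FPKM. Their MEDAG levels of 206.8 and 98.52 FPKM lay inside the range of the other tumors. FPKM is the number of fragments scaled to transcript length and library size, and it was used to compare the levels of different genes. CPM, the fragments of a gene per 1000000 fragments of the library, scaled by the TMM method (a trimmed mean of log ratios between libraries), were used to compare the libraries for 1 gene.

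MEDAG was nearly even in normal meninges, and higher but very uneven in most of the tumors. The controls had 19.93, 21.10 and 22.00 FPKM. The highest meningiomas were library 1 with 444.2 FPKM, library 2 with 206.8, library 4 with 180.0 and library 0 with 175.2. Libraries 7, 8, 5, 12, 3 and 11 followed with 157.4, 143.4, 116.7, 98.52, 85.55 and 77.03 FPKM. The lowest were library 9 with 58.08, library 10 with 56.97 and library 6 with 19.85. In FPKM, 12 of the 13 tumors were thus above all 3 controls, and library 6 was just below them. For comparison, 5.29% of the 14345 genes with enough fragments to test had at least 12 tumors above all controls, a share that is read here only as background because this contrast selected MEDAG.

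**Figure D1:**
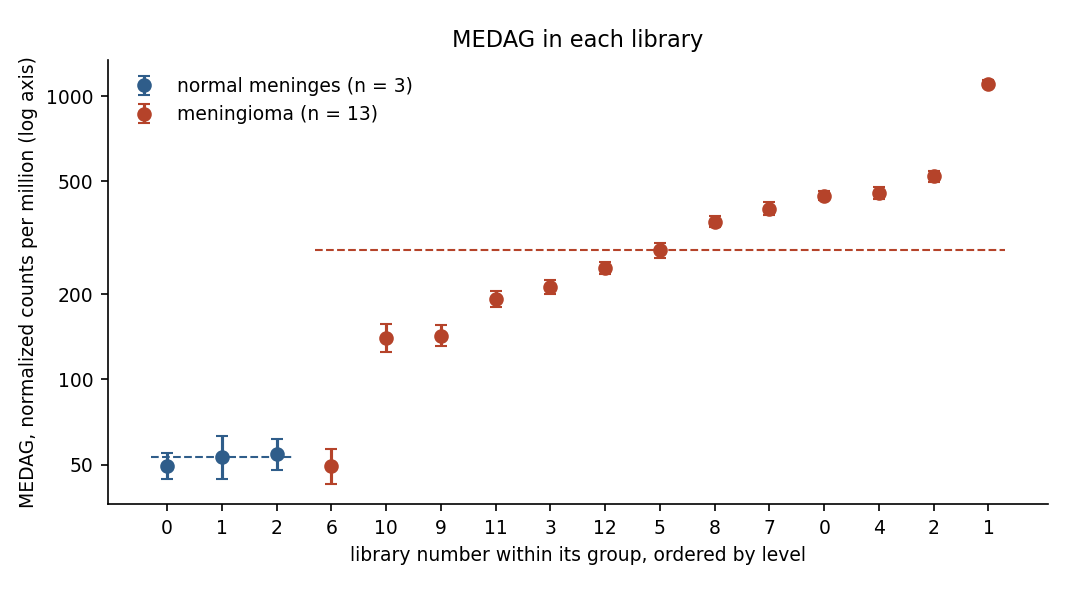
MEDAG in each library in TMM-normalized CPM on a log axis, ordered by level within each group. Bars are 95% exact Poisson intervals of the count and dashed lines are group medians. Meningioma library 6, at 49.5 CPM, lies at the level of the 3 controls, and library 1, at 1107 CPM, lies apart at the top.

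The mean was 140.0 ± 107.0 FPKM (SD, n = 13) in meningiomas and 21.01 ± 1.04 FPKM (SD, n = 3) in controls, and the medians were 116.7 and 21.10. The ratio of the means was 6.66 and that of the medians was 5.53. Relative to the control mean, 12 tumors were at least 2-fold, 9 at least 4-fold and 4 at least 8-fold higher. Fitted to the counts with the edgeR program, MEDAG was 2.74 ± 0.71 (SE) higher on the log2 scale, or 6.70-fold. Over the tested genes the median of this difference was 0.06, and 91 genes (0.634%) had a larger log2 fold change than MEDAG. Library 1 alone held 24.4% of the summed MEDAG FPKM of the tumors, and without it their mean was 114.6 ± 58.1 FPKM.

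Ordered by CPM, the lowest 4 libraries were control 0 with 49.4, meningioma 6 with 49.5, control 1 with 53.3 and control 2 with 54.4. The 95% intervals of neighbours in that order overlapped, and that of meningioma 6 was 42.8 to 57.0 CPM. The MEDAG level of library 6 was therefore not distinguishable from that of normal meninges at this depth. A gap followed, up to library 10 with 140.2 CPM (125.1 to 156.6) and library 9 with 142.7, which overlapped each other. Among the other tumors, libraries 11 and 3 (192.6 and 212.5 CPM) overlapped, as did libraries 0 and 4 (445.2 and 456.5 CPM), and the remaining neighbours did not. Library 1 had 1107 CPM (1076 to 1139), which in FPKM was 2.15 times the next tumor. These intervals are for counting error only and take each fragment as an independent molecule. Amplified fragments without molecular identifiers are not independent, so the intervals can be too narrow.

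MEDAG changed its place among the genes of a library accordingly. In the controls it ranked between 4339th and 4953rd in FPKM, above 79.8% to 82.4% of all genes. In the meningiomas its rank was between 129th, in library 1, and 4659th, in library 6, with a median of 498th. It thus belonged to the well expressed genes of most tumors, with more FPKM than 98.0% of the 24580 genes in the median tumor. Its part of all fragments was 0.00506% to 0.00586% in controls and 0.00557% to 0.114% in tumors.

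MEDAG varied widely between the tumors and little between the controls. On the log2 CPM scale its SD among the 13 meningiomas was 1.11, while the median SD of all tested genes there was 0.58, and 85.4% of the genes varied less than MEDAG. Among the 3 controls its SD was 0.07, against a median of 0.30 over all tested genes, and 5.75% of the genes varied less. The coefficient of variation of FPKM was 76.4% in tumors and 4.94% in controls, and the range was 22.4-fold and 1.1-fold. The tumor spread rested in part on the extremes, since the SD was 0.85 without library 6, 0.97 without library 1 and 0.66 without both. An SD over 3 libraries is itself imprecise. The contrast that chose MEDAG used these same values, so its place in both spreads is a description.

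**Figure D2:**
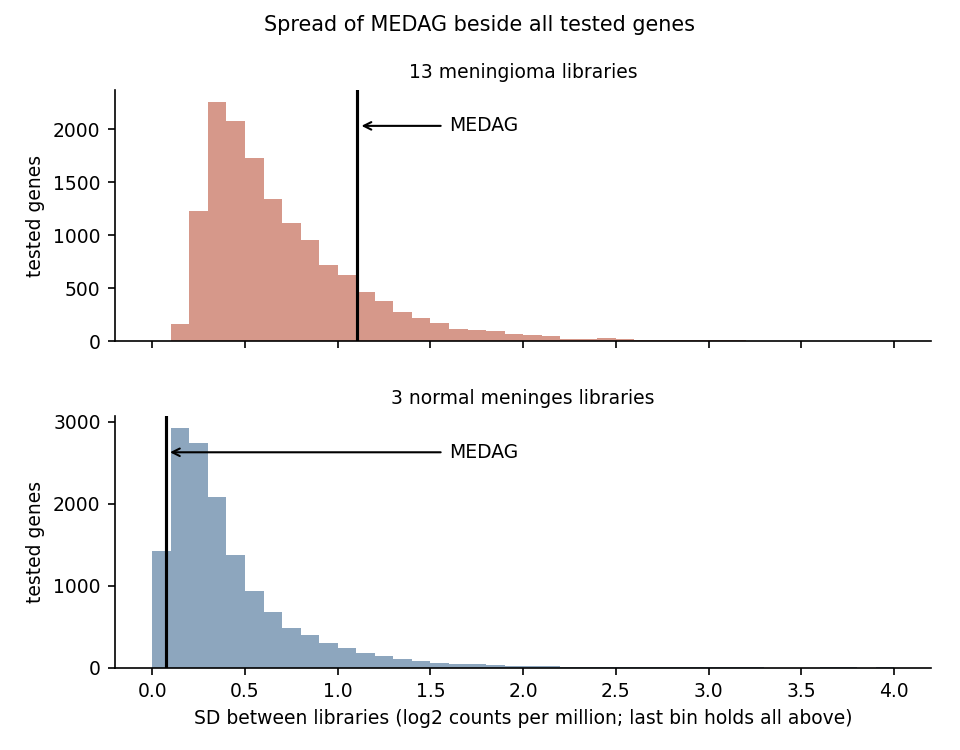
Histograms of the SD between libraries of log2 CPM over the 14345 tested genes, with the number of genes on the vertical axis, for the 13 meningiomas (top) and the 3 controls (bottom). The black line marks MEDAG, which lies in the upper part of the tumor distribution at 1.11 and near the lower end of the control distribution at 0.07.

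Among the 41 listed genes, which the same contrast chose, MEDAG was 8th by mean FPKM in the tumors and 10th in the controls, and 17th by log2 fold change. Its SD among the tumors was the 17th smallest, below the list's median of 1.31. Its SD among the controls was the smallest of the list. At least 12 tumors were above all controls for 19 of the 41 genes and all 13 for 11 of them. Over all tested genes the share was 5.29% for at least 12 tumors, and it was not computed for all 13. These places are a description, since the choice of the list used the same values.

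Library 6, the tumor with MEDAG at the control level, was then examined for the other listed genes, which were chosen as different between these tumors, library 6 included, and these controls. The counts are therefore a description. The share of all tested genes beyond the controls in each library was not computed, so the counts are set only beside those of the other tumors. In CPM, 25 of the 40 other overexpressed genes were above all controls in it, against 28 to 38 in each of the other tumors (median 36). Of the 83 genes that the study listed as underexpressed, 78 were below all controls there, against 80 to 83 in the other tumors. TF, the iron carrier transferrin, had 470.9 FPKM in library 6, its highest tumor value, against 21.53 ± 2.06 (SD, n = 3) in controls. PDPN, the arachnoid marker podoplanin, had 131.9 FPKM in library 6 against 30.09 ± 13.9 in controls. KLF5, a transcription factor of epithelia and of early fat cell differentiation, had 102.3 FPKM there, close to its tumor median of 101.4 and above its control mean of 11.56.

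The listed genes that were low in library 6 along with MEDAG were of several kinds. Below all controls were 7 genes, among them AMPD3, BMPER, CHGA, CTPS1, PAMR1 and WFDC2, where each other tumor had 0 to 5 such genes. BMPER, a secreted protein that binds bone morphogenetic proteins, had 1.19 FPKM there against a tumor median of 26.83 and a control mean of 5.90. CTPS1, an enzyme that makes cytidine triphosphate, had 9.20 FPKM against 65.18 and 21.24. PAMR1, a secreted protein with a protease-like domain, had 7.79 FPKM against 90.70 and 14.52. A further 8, COMP, KLKB1, MYBL1, MYC, MYRF, RIMS1, VWA5A and ZC2HC1C, lay within the range of the controls. For 12 of the 40 genes library 6 had the lowest value of all tumors, and for 12.6% of all tested genes it did so. Library 6 had 3482951 fragments, which was inside the depth range of the other tumors.

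The levels of other genes were then set against MEDAG over the 13 meningiomas only, to ask which genes followed its pattern. No gene passed. With edgeR's quasi-likelihood test of a slope on MEDAG, 0 of 14344 genes (0%) were called at an adjusted p under 0.05, and the smallest adjusted p was 0.0549. At an unadjusted p under 0.05 there were 1659 genes (11.6%), 867 with a positive and 792 with a negative slope. DESeq2 called 337 genes, 199 of them positive, and limma on log2 FPKM called 0. Without libraries 6 and 1, the lowest and the highest in MEDAG, edgeR called 89 genes. A slope is the change of a gene in log2 units for 1 log2 unit of MEDAG.

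WFDC2, a small secreted protein with a whey acidic protein domain that is common in epithelia, had the highest Pearson's r with MEDAG over the 13 tumors among the 123 other genes with a symbol. Its level was 24.82 FPKM in the lowest tumor, library 6, 228.8 in the median tumor and 571.2 in the highest, library 2. The controls had 62.01, 99.19 and 70.43 FPKM. Library 6 thus lay below all controls, and the other 12 tumors lay above them. Pearson's r with MEDAG was 0.83 over 13 tumors (permutation p = 0.00119, adjusted over 123 genes 0.146) and Spearman's rho was 0.66 (permutation p = 0.0174, adjusted 0.437). Without libraries 6 and 1, the farthest from the median of MEDAG, r was 0.59. The order of likeness changed without them, with r of 0.79 for FAM198B, 0.76 for GAS6 and 0.71 for CRISPLD2, which were named after their values were seen and had r of -0.08, 0.35 and 0.43 over all 13 tumors. The slope was 0.86 ± 0.19 (SE), with an edgeR adjusted p of 0.165. Among all 14344 genes, most of them without a symbol here, 22 had a larger r.

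CHGA, chromogranin A, a protein of the secretory granules of neuroendocrine cells, was next with r = 0.73 (permutation p = 0.00407, adjusted 0.167). It ran from 1.34 FPKM in library 6 to 129.5 in library 1, the same tumors that were lowest and highest in MEDAG, while the controls had 8.13, 3.37 and 4.55 FPKM. Between these ends the relation was loose. Library 8, with 143.4 FPKM of MEDAG, had only 5.66 FPKM of CHGA, and library 11, with 77.03, had 83.89. Without libraries 6 and 1 r was 0.35, and rho over all 13 was 0.52 (permutation p = 0.0696), so the relation rested on these libraries.

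ADCY2, an adenylate cyclase that makes cyclic AMP, had r = 0.64 (permutation p = 0.0174, adjusted 0.262) and rho = 0.64. Its tumor levels were 1.02 FPKM at the lowest, in library 6, 4.32 at the median and 28.19 at the highest, in library 0. The controls had 42.75, 39.93 and 35.57 FPKM, above all tumors. ADCY2 was on the study's list of underexpressed genes and MEDAG on that of overexpressed genes, so their opposite directions were fixed by that choice. Between tumors and controls edgeR did not call ADCY2 (adjusted p = 0.0508). Within the tumors its r with MEDAG was positive. The relation had exceptions, as library 2, with 206.8 FPKM of MEDAG, had only 1.125 FPKM of ADCY2. Its slope was 1.17 ± 0.34 (SE), with an edgeR adjusted p of 0.231, and r was 0.59 without libraries 6 and 1. COMP, a cartilage matrix protein, followed with r = 0.58 (permutation p = 0.0346, adjusted 0.354), and r was 0.40 without these libraries.

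FMOD, the collagen-binding proteoglycan fibromodulin, had r = 0.57, and 0.63 without libraries 6 and 1, but rho was 0.30 (permutation p = 0.324) and the slope of FMOD went from 0.59 to 0.11 without library 6 alone. BMPER and MYC, a growth-promoting transcription factor, had r of 0.55 and 0.54, but -0.004 and -0.11 without these libraries. Their likeness to MEDAG was thus not seen over the other 11 tumors. ZC2HC1C, a zinc finger gene, was the eighth with r = 0.53. None of the 8 had a Pearson or Spearman p that passed adjustment over the 123 genes.

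At the other end, the gene listed as ERMP1/DMXL2 had r = -0.72 (permutation p = 0.00355, adjusted 0.167) and rho = -0.75. The study printed 1 identifier for both symbols, a peptidase of the endoplasmic reticulum and a synaptic vesicle protein, so which of them the values belong to is uncertain. Its tumor levels were 14.39 to 60.13 FPKM with a median of 26.82, and the controls had 9.20, 7.99 and 9.88, so all 13 tumors were above the controls. Libraries 3, 10, 9 and 6, with 60.13, 49.74, 49.52 and 49.36 FPKM, had the highest levels and were all in the lower part of the MEDAG order. Libraries 4 and 0, high in MEDAG, had the lowest levels with 14.39 and 15.49 FPKM. The slope was -0.45 ± 0.13 (SE), with an edgeR adjusted p of 0.219. This relation was as close without libraries 6 and 1, where r was -0.78.

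SPTBN5, a spectrin of the membrane skeleton, had r = -0.72 (permutation p = 0.00975, adjusted 0.262). It was at 0.0397 to 0.691 FPKM in 12 tumors and at 3.71 in library 6. That 1 tumor carried much of the relation, as r was -0.31 without libraries 6 and 1. DYSF, PTPRB, PREX2, EMCN, ARAP3 and TM4SF18 followed with r between -0.66 and -0.61, and between -0.36 and -0.09 without these libraries. PTPRB, a phosphatase receptor of endothelial cells, had its highest tumor level of 13.06 FPKM in library 6 and its lowest of 3.07 in library 1. EMCN, an endothelial sialomucin, likewise had 8.44 FPKM in library 6 and 0.757 in library 1.

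**Figure D3:**
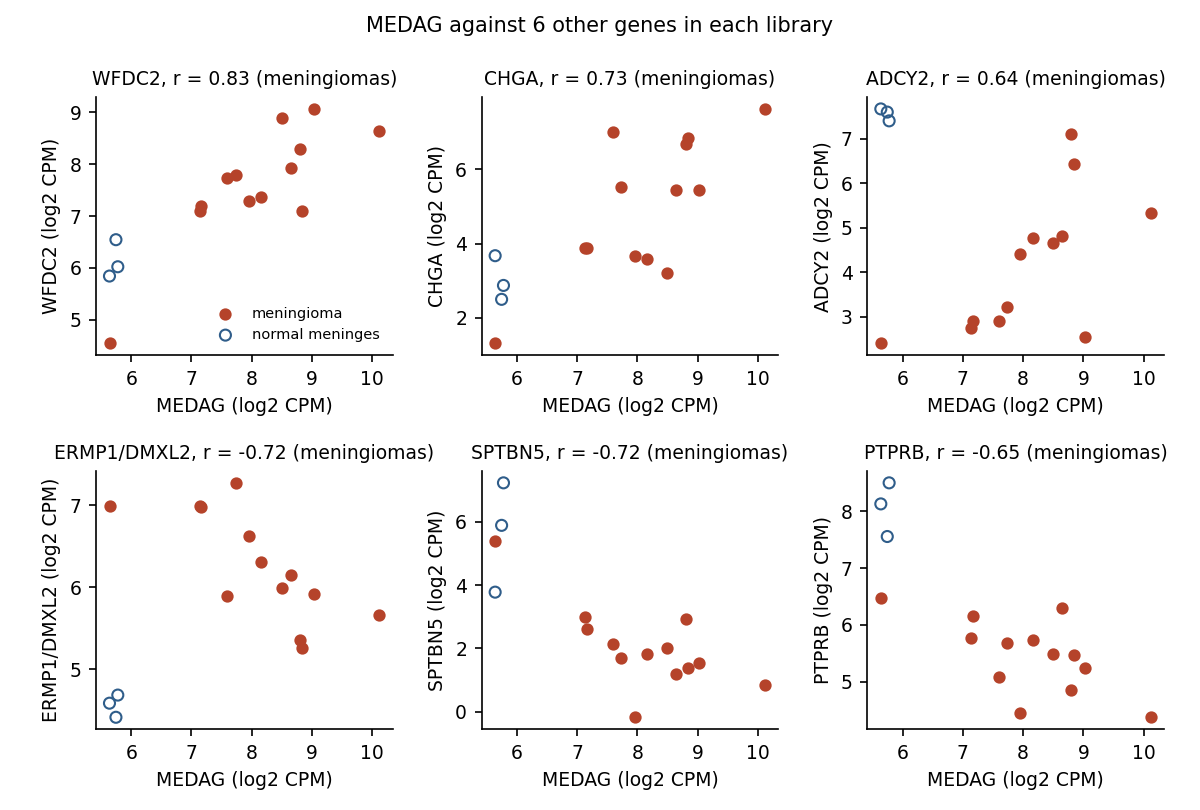
Log2 CPM of 6 genes (vertical axes) against log2 CPM of MEDAG (horizontal axes), with 1 point per library, filled for the 13 meningiomas and open for the 3 controls. Titles give Pearson's r over the meningiomas. Library 6 is the filled point at the left of each panel, and ERMP1/DMXL2 keeps its downward course without it (r = -0.78 without libraries 6 and 1).

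Over all 14344 genes the median r with MEDAG was -0.01, the central 95% ran from -0.62 to 0.66, 43 genes were above 0.8 and 18 below -0.8. Of the 123 genes with a symbol, 13 had an unadjusted permutation p under 0.05 for Pearson's r and 0 after adjustment. Among the 40 other overexpressed genes 30 had a positive r (median 0.17), and among the 83 underexpressed genes 23 did (median -0.18). These lists were chosen on the same tumors and share their libraries, so the counts are a description.

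Genes of fat cell differentiation and lipid handling were examined because of what MEDAG is known for. Only 8 of the 29 genes of that list had an identifier with a symbol, all from the study's lists of changed genes, and the others, PPARG and FABP4 among them, were not analysed here. In edgeR's test between tumors and controls 2 of the 8 were higher and 4 lower, where 1.31% of all tested genes were called higher and 3.55% lower. Since the symbols came from lists of changed genes, nothing is read from these counts. The same choice fixed the direction of each gene below, so their adjusted p are a description and not a new test. KLF5 rose from 11.56 ± 2.68 to 108.1 ± 35.5 FPKM (log2 fold change 3.23, edgeR adjusted p = 8.31e-05). WNT5A, a WNT ligand that signals without beta-catenin, rose from 7.72 ± 3.33 to 43.25 ± 31.1 FPKM (log2 fold change 2.48, edgeR adjusted p = 0.0367), a call that was lost without any 1 of the controls (adjusted p 0.108 to 0.167).

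The 4 lower genes of that list act in lipid transport, lipid breakdown and signalling. APOE, the lipid carrier apolipoprotein E, fell from 709.0 ± 267.4 to 120.9 ± 76.0 FPKM (log2 fold change -2.54, edgeR adjusted p = 0.00744), and MGLL, which splits monoglycerides, fell from 29.22 to 5.16 FPKM (adjusted p = 0.00361). Both calls were lost without control 2, with adjusted p of 0.0829 and 0.0578. SFRP1, a secreted WNT antagonist, fell from 39.26 to 3.83 FPKM (adjusted p = 0.00715), and PTGIR, the prostacyclin receptor, from 14.27 to 1.51 (adjusted p = 0.0076). Without control 0 their adjusted p were 0.0535 and 0.057. CCDC80 and APOD were not called, with adjusted p of 0.145 and 0.0537, although DESeq2 called APOD (adjusted p = 0.0282).

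Within the tumors the r of the 8 genes with MEDAG lay on both sides of 0. It ran from -0.52 for APOD, a lipocalin that carries small lipids, to 0.50 for CCDC80, a secreted matrix protein of fat tissue, with 3 positive and a median of -0.13. KLF5 had r = 0.07 and APOE r = -0.06, although KLF5 was called higher and APOE lower in tumors. The summed FPKM of the 8 was 163.1 to 473.3 in tumors and 780.9 to 1676 in controls. Its r with MEDAG was -0.23 (permutation p = 0.437, adjusted over 5 lists 0.647), and -0.44 without libraries 6 and 1. In library 6 and library 1 the sums were 408.5 and 426.2 FPKM. A few genes carried most of the sum, with control means of 709.0 FPKM for APOE and 304.6 for APOD. In tumors APOE and KLF5 averaged 120.9 and 108.1 FPKM. Of the 9 genes listed for estrogen and progesterone response and the 5 immune markers, 0 had an identifier with a symbol, so neither response was analysed here.

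Markers of the cells that whole meninges hold were set beside MEDAG. Like the genes above, those measured had a symbol only through the study's lists of changed genes, so their direction between tumors and controls was fixed by that choice and is not read as a result. Of 16 endothelial genes 15 were measured, and edgeR called all 15 lower in tumors, where 3.55% of all tested genes were. Their summed FPKM was 65.04 to 233.2 in meningiomas and 583.3 to 956.7 in controls, with no gene at 0. Among the tumors 13 of the 15 had a negative r with MEDAG (median -0.24), and the sum had r = -0.25 (permutation p = 0.416, adjusted 0.647) and r = 0.53 without libraries 6 and 1. Library 6 had 186.6 and library 1 had 65.04 FPKM of these genes. The direction within the tumors thus turned with these libraries, and the part of vessel content in the MEDAG levels was not tested.

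Smooth muscle and pericyte genes (5 of 8 measured, all called lower) summed to 12.66 to 48.15 FPKM in tumors and 116.0 to 272.5 in controls. Fibroblast genes (5 of 10 measured, all called lower) summed to 123.9 to 375.1 and 999.2 to 1644. Of all tested genes 3.55% were called lower and 1.31% higher. The study's lists fixed the direction of these genes and of PDPN and GJB2 below, so no call is read as a result. The r of these sums with MEDAG was -0.20 and 0.08 (adjusted permutation p 0.647 and 0.797), and 0.40 and 0.74 without libraries 6 and 1. In library 6, where MEDAG was at the control level, the sums were 32.89 and 365.5 FPKM. IGFBP6 carried much of the fibroblast sum, with 311.8 FPKM in library 6 and means of 152.1 in tumors and 839.9 in controls. Its own r with MEDAG was 0.02, and 0.67 without libraries 6 and 1. Of the 9 arachnoid and meningioma genes, PDPN and GJB2, a gap junction protein, were measured. Both were called higher in tumors (adjusted p 0.0398 and 0.0176), with r of 0.35 and 0.04 with MEDAG, and 0.43 and -0.86 without libraries 6 and 1. GJB2 was the 1 gene with a symbol among the 89 that edgeR called without these libraries. Between tumors and controls both calls were lost without any 1 of the controls. That of PDPN was also lost without meningioma library 0 or 5 (adjusted p 0.052 and 0.0516). DSP and PTGDS, further markers of arachnoid cells, were not analysed here.

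Immediate-early genes, which answer within minutes to growth factors or handling of tissue, were measured for 6 of 7 members. Their summed FPKM was 96.33 to 1983 in tumors and 47.32 to 80.51 in controls. All 6 had a positive log2 fold change, and 1 of them, MYC, was called higher, where 1.31% of all tested genes were. The 6 came from the study's list of overexpressed genes, so this count is not read as a result. All 6 had a positive r with MEDAG, from 0.15 for EGR1 to 0.54 for MYC, with a median of 0.29. The r of the sum was 0.37 (permutation p = 0.221, adjusted 0.647). Of the other 11 genes that the study also took to qPCR, 8 had a positive r (median 0.35), from -0.50 for FRZB, a secreted WNT antagonist, to 0.55 for BMPER.

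**Figure D4:**
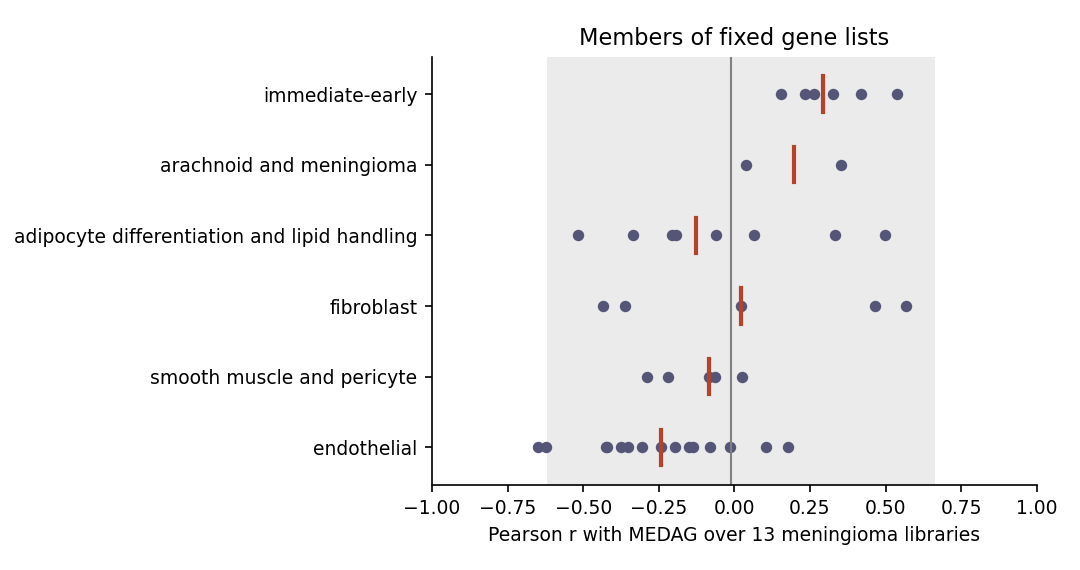
Pearson's r with MEDAG over the 13 meningiomas (horizontal axis) for each measured gene of 6 lists, with 1 point per gene and a red bar at the list's median. The grey band is the central 95% of all 14344 genes, from -0.62 to 0.66, and the line their median. All genes but EMCN and PTPRB of the endothelial list lie in the band, and the medians run from -0.24 (endothelial) to 0.29 (immediate-early).

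No relation of MEDAG with the depth of the library passed the test. Its r with the total of fragments was 0.32 over 13 tumors (permutation p = 0.291) and rho was 0.41 (permutation p = 0.162), and r was 0.14 without the 2 libraries farthest from the median total. The highest tumor, library 1, had 4246236 fragments, near the median of 4095984.

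In the RefSeq annotation of the dog assembly UU_Cfam_GSD_1.0, which was used for the order of genes only, MEDAG lies on chromosome 25 between TEX26 and LOC102155390. Neither neighbour had a symbol in the table. FLT1, a receptor of vascular endothelial growth factor, lies 14 protein-coding genes away and was lower in tumors (log2 fold change -3.02), and GJB2 lies 62 away and was higher (log2 fold change 3.07). Both had a symbol only through the study's lists of changed genes, so their directions were fixed by that choice. Genes of the chromosome outside those lists were not examined here, so nothing is read about the region.

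The direction of the MEDAG difference was the same under each setting that was tried. The log2 fold change was 2.46 to 2.84 when each of the 16 libraries was left out in turn, lowest without library 1 and highest without library 6. It was 2.33 to 2.74 under other ways of scaling, other programs and without pairs of libraries.

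**Figure D5:**
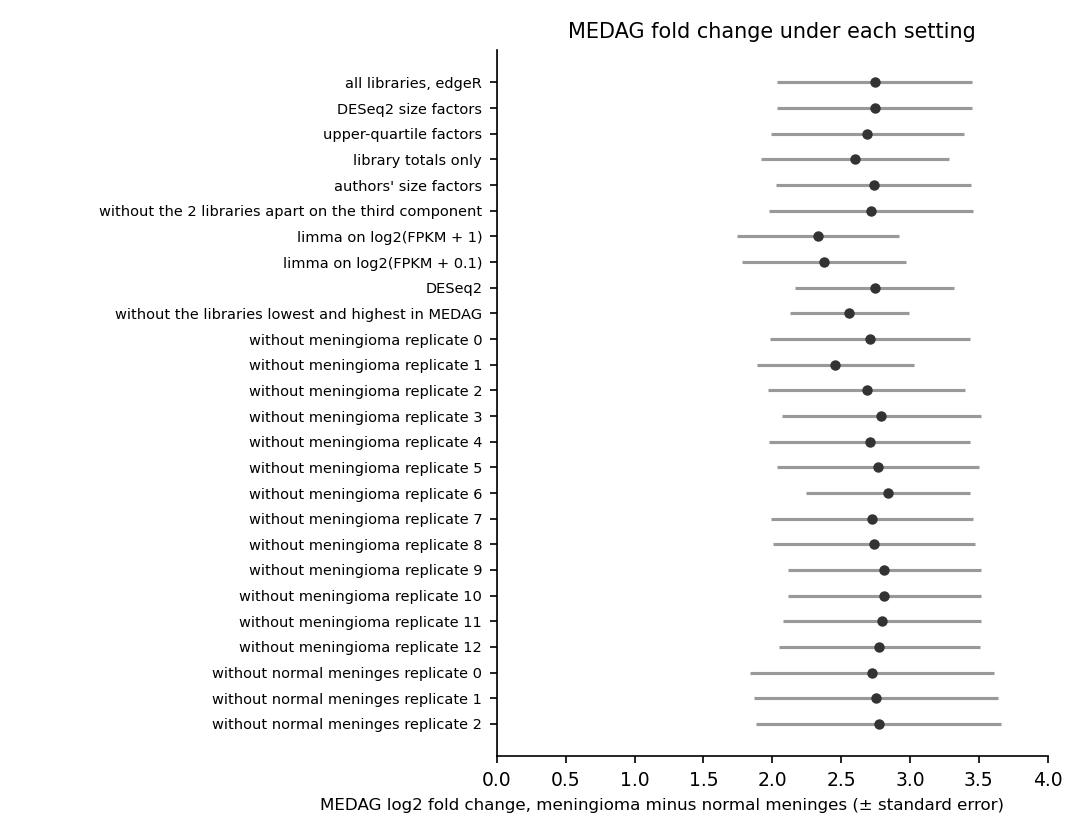
MEDAG log2 fold change between meningioma and normal meninges (horizontal axis, points, with standard errors as bars) under each setting (vertical axis). All points lie between 2.33 and 2.84.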

How the data were processed

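Total RNA of the 16 samples was depleted of ribosomal RNA and sequenced in directional libraries. According to the submitters' processing notes, reads were trimmed with cutadapt 1.8, mapped to canFam3 with TopHat2 2.0.13 and quantified with Cuffdiff 2.2.1. The authors deposited 1 table of 24580 genes with an estimated count of fragments per library, of which 1364 of 393280 values (0.347%) were not whole. The deposited signal is the fragments divided by 1 size factor per library, and the deposited FPKM is computed by the authors from these scaled fragments and transcript length. The table's condition letters gave the groups. The table's library names do not name single samples, so libraries were not tied to samples, and qPCR values were not used here.

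Estimated counts were rounded, and the 14345 genes that reached 10 fragments in 3 or more libraries entered edgeR 4.0.16 (R 4.3.3, TMM scaling, quasi-likelihood fit), Benjamini-Hochberg adjusted over all of them at 0.05. A standard error is the size of the log2 difference over the square root of F. The slope on MEDAG (log2 CPM, prior count 2) was tested for the 14344 other genes in the 13 meningiomas. Correlations used two-sided permutation tests with 100000 resamples (Python 3.11.15, scipy 1.17.1), adjusted over 123 genes or over 5 lists. P-values set a difference or slope against the spread between libraries, which came from different dogs. That spread also holds differences in preservation and breed. Alternatives were DESeq2 1.42.0, limma 3.58.1 on the log2 of FPKM plus 1 or plus 0.1, 4 other scalings (DESeq2, upper-quartile, library total and the authors' factors), no filter or at least 50 fragments, ranks of MEDAG, library size as a covariate, and libraries left out. The scripts were tested on simulated data.

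Symbols were known for 124 identifiers, 41 and 83 from the study's lists of over- and underexpressed genes. Named genes were MEDAG, measured members of the marker lists, and the 8 genes with the highest and the 8 with the lowest r with MEDAG among those with a symbol. Genes named for library 6 were those low there, except an item that is not reported here, and TF, PDPN and KLF5, chosen after their values were seen. MEDAG and the lists were chosen with earlier results of these data known. The canFam3 genome was not used here, so no coordinates or sequences are given.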

Additional observations from a re-analysis of the deposited data

How the results depend on the processing

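The count of genes whose level varied with MEDAG among the meningiomas, 0 with edgeR, depended on the program and on the libraries. It was 337 with DESeq2, 29 with no filter on low counts, 2 with at least 50 fragments, 1 with ranks of MEDAG, 2 without libraries 2 and 12, and 89 without libraries 6 and 1, the last an alternative chosen after seeing the data. With each tumor left out it was 0 to 18, with 12 without library 1, 18 without library 11 and 1 without library 12. The other size factors, limma and library size as a covariate gave 0. At an unadjusted p under 0.05 there were 2714 genes with no filter. Without libraries 6 and 1 the slopes of BMPER and MYC reversed, to -0.0508 and -0.0571. DESeq2 called the slopes of WFDC2 (adjusted p = 0.000143), ADCY2 (0.00994), SPTBN5 (0.018), CHGA (0.0233), ERMP1/DMXL2 (0.0325) and COMP (0.0343). The causes were not tested.

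Between tumors and controls edgeR called 697 genes in all, DESeq2 1364, and edgeR 203 to 935 with each library left out, with 279, 378 and 203 without control 0, 1 and 2. The SD of MEDAG among the tumors was 0.85 to 1.16 with each tumor left out and 0.66 to 1.17 otherwise, and its r with library size 0.20 to 0.40. No paired analysis was possible because the libraries of the table carry numbers within their group only and came from different dogs. The 3 controls limit every comparison with normal meninges.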
